A study of Mus musculus with 2 samples.

Results

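T cells are lymphocytes that recognise antigen through a receptor whose signal passes through the CD3 chains. Here they were the barcodes of 2 mouse bone marrow libraries with at least 2 UMIs of Cd3d, Cd3e and Cd3g together, which encode those chains. A UMI is a molecular tag that counts 1 captured RNA. Each barcode also had to hold at most 1 UMI of the B cell receptor genes Cd79a and Cd79b and under 5% of its UMIs from S100a8 and S100a9, the most abundant granulocyte transcripts. Only barcodes with at least 1000 UMIs and under 10% mitochondrial UMIs were kept. The rule found 302 T cells among 13251 kept barcodes of the control library and 109 among 10543 of the MYC library, 411 of 23794 in all.

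Both libraries came from primary haematopoietic cells of bone marrow and were made with a droplet kit that tags one end of each transcript. The control carried the genotype Mx1Cre+/-;Rosa26+/+ and the other Mx1Cre+/-;Rosa26LSL-MYC/LSL-MYC, so both carried the Cre recombinase under the interferon-inducible Mx1 promoter, and only the second carried a MYC cassette behind a stop sequence at Rosa26. The age, sex, treatment and number of animals behind each library are not given in the sources used here. With 1 library per genotype there is no replicate, no test of genotype was possible, and genotype and library cannot be told apart. Intervals are 95%, exact for shares, levels and ratios and by Newcombe's method for differences of shares, and they cover counting error only. A difference was called when it reached 2-fold, its interval excluded equality and the gene had at least 50 UMIs over both libraries.

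Naive T cells keep the transcription factors Tcf7 and Lef1 and the trafficking receptors Ccr7 and S1pr1. Effector and memory CD8 cells express the chemokine Ccl5, the granule protein Nkg7, granzymes and perforin. T cells held under lasting antigen stimulation are known to express Tox and inhibitory receptors such as Pdcd1, Lag3 and Havcr2, and regulatory T cells are defined by Foxp3. Marrow is known to hold many memory T cells and few naive ones.

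The kept barcodes held 126196196 UMIs in the control library and 103670793 in the MYC library. T cells held 2271518 and 723901 of these, with medians of 6488 UMIs per cell in the control (1257 to 69363) and 5258 in the MYC library (1117 to 31794). A feature named MYC, listed apart from mouse Myc, had 0 UMIs in the 13251 control barcodes, which allows a share of up to 0.0226% of cells with a UMI. It had 312 UMIs in 287 of 10543 MYC library barcodes (2.72%, 2.42 to 3.05). Among T cells it was seen in 0 of 302, which allows up to 0.993%, and in 1 of 109 (0.917%, 0.0232 to 5.01). Mouse Myc fell in MYC library T cells, from 34.3 CPM (UMIs scaled to a total of 1000000, 27.1 to 42.9) in the control to 13.8 CPM (6.62 to 25.4), a log2 ratio of -1.31 (-2.43 to -0.36). It was found in 45 of 302 and 9 of 109 T cells, a difference of -6.64 percentage points (-13.0 to 1.19), an interval that holds 0. The libraries shared 97 barcode sequences, and none of these was a T cell in both.

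The members carried transcripts of the T cell receptor, whose constant genes were not part of the rule. A UMI of an alpha, beta, gamma or delta constant gene was present in 297 of 302 control cells (98.3%) and 105 of 109 MYC library cells (96.3%). The same share was 2.13% and 0.529% in the neutrophil barcodes of the 2 libraries, whose median depths were 5315 and 6673 UMIs, and 1.43% and 0.620% in B cells. It was 34 of 40 (85.0%) and 11 of 13 (84.6%) in barcodes of an NK gate, which hold no CD3 UMI, so these genes do not separate the members from NK cells. The alpha constant gene Trac alone was found in 212 of 302 and 71 of 109 members, and in 0 of 40 and 1 of 13 barcodes of the NK gate. Ranked by CPM over all other kept barcodes, the genes with the largest ratios in both libraries included Trac (213-fold in the control, 782-fold in the MYC library), Trbc2 (194 and 890), the thymic selection adaptor Themis (205 and 597), Cd3e (267 and 724) and Tcf7 (128 and 319), which describes the gate and is no test. At the edge of the gate, 19 control and 15 MYC library members had exactly 2 CD3 UMIs, and 93 and 44 barcodes just outside had 1. Members with 6 or more numbered 213 and 71. The S100a8 and S100a9 limit removed 92 and 64 barcodes that met the CD3 and Cd79 criteria.

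T cells made up 2.28% of kept barcodes in the control library (2.03 to 2.55) and 1.03% in the MYC library (0.85 to 1.25), a difference of -1.25 percentage points (-1.57 to -0.919). Barcodes passing a B cell gate were 10.0% and 4.59% of kept barcodes, and those of an NK gate 0.302% and 0.123%. Fewer T cells and more of the other cells cannot be told apart in such a share. Thinned to 1000 UMIs per barcode before the gates, the shares were 0.936% and 0.493%, a difference of -0.443 points. Without cells holding a UMI of the NK receptor genes Ncr1 or Klrb1c they were 1.57% and 0.749%, a difference of -0.820 points.

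Cd4 (chr6:124864692-124888221, minus strand of GRCm38 in the GENCODE annotation) marks helper and regulatory T cells. Cd8a (chr6:71373427-71379173, plus strand) with Cd8b1 (chr6:71322788-71337494, plus strand) marks cytotoxic ones. Cells with UMIs of Cd4 and none of Cd8a or Cd8b1 numbered 68 of 302 in the control library (22.5%, 17.9 to 27.7) and 26 of 109 in the MYC library (23.9%, 16.2 to 33.0). Cells with UMIs of Cd8a or Cd8b1 and none of Cd4 numbered 62 (20.5%, 16.1 to 25.5) and 33 (30.3%, 21.8 to 39.8). The CD8 share was 9.75 points higher in the MYC library, with an interval from -0.0598 to 20.3 that just reached 0. Neither coreceptor was detected in 171 (56.6%) and 50 (45.9%) cells, a difference of -10.8 points (-21.9 to 0.647), and 1 control cell held both. These coreceptor UMIs were rare in neutrophil barcodes and B cells. Cd4 was found in 0.452% and 0.0854% of neutrophil barcodes, Cd8a in 0.204% and 0.0512% and Cd8b1 in 0.16% and 0.0683%. In B cells the shares were 1.13% and 0.207% for Cd4, 0.0751% and 0.620% for Cd8a and 0.225% and 0.207% for Cd8b1. Monocytes, macrophages and dendritic cells, which can also express Cd4, were not gated here.

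**Figure D1:**
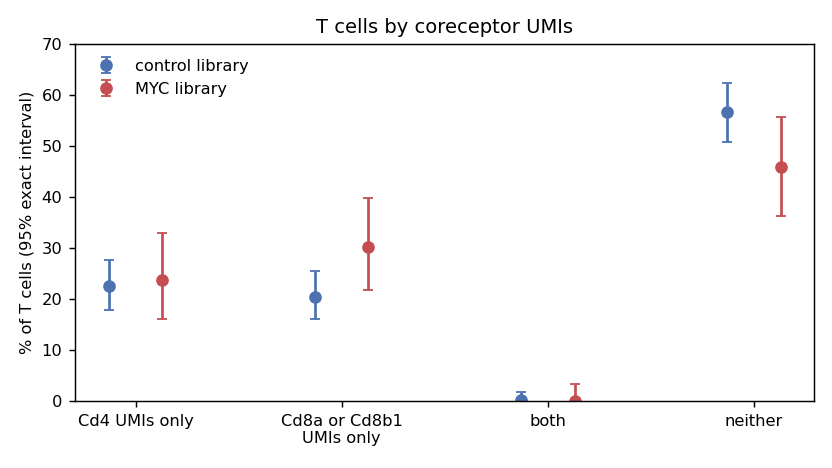
Share of T cells (vertical axis, %) with UMIs of Cd4 only, of Cd8a or Cd8b1 only, of both or of neither, in the control library (302 cells) and the MYC library (109 cells). Points are shares and bars exact 95% intervals for counting error. Intervals of the libraries overlap in every class, and the cells without either coreceptor are the largest class in both.

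Of the cells with a single coreceptor, CD4 cells were 52.3% in the control library and 44.1% in the MYC library, a difference of -8.24 points (-23.9 to 7.97). Cells of a single coreceptor are called CD4 and CD8 cells below. The cells with neither coreceptor had a median of 6521 and 4848 UMIs, against 5217 and 5353.5 in CD4 cells and 7777.5 and 5640 in CD8 cells. Thinned to 1000 UMIs, the CD4 share differed by -28.9 points, from far fewer cells.

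Naive content was read from Ccr7, Lef1, Igfbp4 and Dapl1, and effector content from Ccl5, Nkg7, Gzmk, Gzma, Gzmb, Prf1, Ifng and Cxcr3. Cells with naive genes and no effector gene were few, 19 of 302 control (6.29%) and 8 of 109 MYC library T cells (7.34%), a difference of 1.05 points (-4.27 to 8.10). Cells with an effector gene were the rule, 247 (81.8%) and 93 (85.3%), a difference of 3.53 points (-5.55 to 11.3). That difference was 13.7 points (-2.68 to 28.0) with every barcode thinned to 1000 UMIs. Without the S100a8 and S100a9 limit, which lets in barcodes rich in granulocyte RNA, it was -12.9 points (-21.7 to -4.08), an interval on the other side that excludes 0. In neutrophil barcodes 17.9% and 17.5% had a UMI of the 8 genes, mostly Nkg7 (15.6% and 15.7%).

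The libraries differed in how the naive and effector genes combined. Cells with effector genes and no naive gene were 131 of 302 in the control (43.4%) and 67 of 109 in the MYC library (61.5%), 18.1 points higher (6.70 to 28.9). Cells with both kinds were 116 (38.4%) and 26 (23.9%), 14.6 points lower (-24.1 to -3.91). A naive gene was detected in 44.7% and 31.2% of T cells, and in 20.9% and 21.6% of neutrophil barcodes. The summed level of the 4 naive genes stood at 125 and 124 CPM (ratio 0.991, 0.773 to 1.26), and in CD8 cells its ratio was 1.09 (0.776 to 1.52), while the shares count cells with a UMI. With each member at 1000 UMIs the expected shares were 56.2% and 68.6% for effector genes alone and 6.52% and 3.53% for both kinds.

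By these shares the difference was largest in the CD8 cells. Effector genes without naive genes were found in 18 of 62 control CD8 cells (29.0%) and 24 of 33 in the MYC library (72.7%), 43.7 points higher (21.3 to 61.4), while both kinds were found in 40 (64.5%) and 8 (24.2%), a difference of -40.3 points (-57.9 to -18.0). With each CD8 cell at 1000 UMIs the expected shares were 64.7% and 88.1% for effector genes alone and 11.6% and 5.49% for both. In CD4 cells, effector genes alone were found in 27 of 68 (39.7%) and 11 of 26 (42.3%), 2.60 points higher (-20.2 to 26.4). In cells with neither coreceptor they were found in 86 of 171 (50.3%) and 32 of 50 (64.0%), 13.7 points higher (-2.99 to 28.9). The difference between the classes was not tested.

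**Figure D2:**
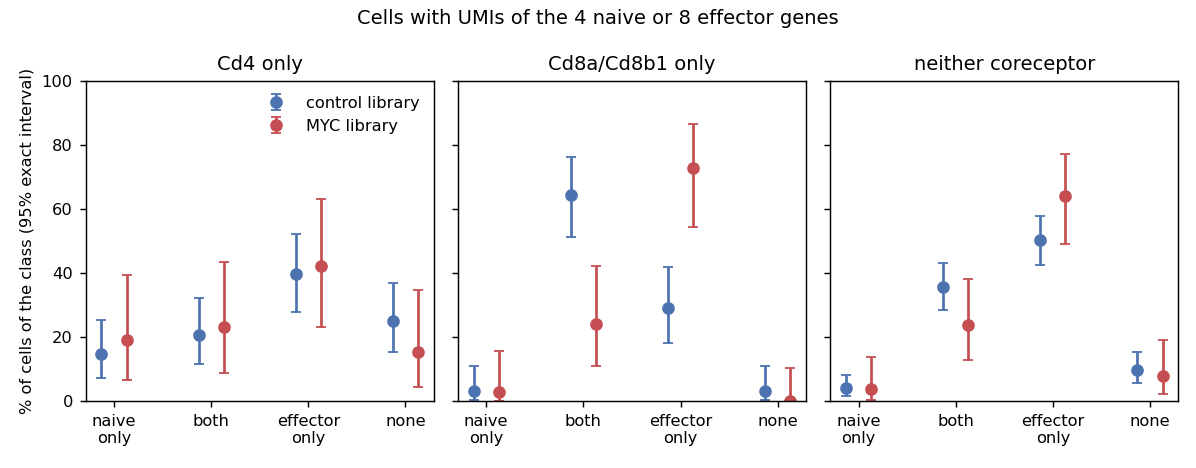
Share of cells (vertical axis, %) with UMIs of the naive genes only, of both kinds, of the effector genes only or of none, in CD4 cells, CD8 cells and cells with neither coreceptor. Points are shares and bars exact 95% intervals for each library. In CD8 cells the control library is highest for both kinds (64.5%) and the MYC library for effector genes only (72.7%).

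Across all T cells 6116 genes had at least 50 UMIs, of which 235 were higher in the MYC library (3.84%) and 300 lower (4.91%). The split moved with scaling. By UMI total 43.9% of called genes were higher, against 53.2% by median of ratios, 67.5% with ribosomal protein genes left out of the total (403 higher, 194 lower) and 15.4% with the 20 most abundant genes left out (106 higher, 581 lower). With these last 2 totals the median log2 ratio of all genes was 0.06 and -0.22, against -0.05 by UMI total. Among genes enriched in T cells over the other barcodes of both libraries and with at least 100 UMIs, the largest differences upward included Ccl5, the anti-apoptotic Bcl2a1b, the chemokine Ccl4, the AP-1 factor Batf and Pdcd1. Ccl5 went from 1581 to 5604 CPM, a ratio of 3.54 (3.39 to 3.71). Ratios were 3.50 for Bcl2a1b (2.37 to 5.19), 2.97 for Batf (2.01 to 4.39), 2.80 for Pdcd1 (1.98 to 3.95, and a log2 ratio of 0.58 in place of 1.48 by a mean over cells, which is under 2-fold) and 2.46 for the immunoproteasome subunit Psmb8 (2.17 to 2.79). For Ccl4 the ratio was 3.43 (2.68 to 4.39), but 96 of 129 control UMIs came from 1 cell. Nrgn had the largest ratio, 4.98, and 42 of its 81 MYC library UMIs came from 1 cell. The other genes ranked this way were Spp1, Slc25a4, Bax, Cmc1 and Nme2, with ratios between 2.40 and 3.46. Most of these genes were also higher in B cells of the MYC library, so the differences are not shown to be particular to T cells, and the difference between the cell types was not tested. In B cells Bcl2a1b was at 4.62 and 70.6 CPM, Batf at 10.6 and 47.5, Ccl4 at 2.85 and 56.5, Psmb8 at 201 and 393, Nme2 at 359 and 962 and Slc25a4 at 57.8 and 162. Ccl5 and Pdcd1 were low there, at 1.70 and 6.10 CPM and 0.476 and 4.27 CPM. Nrgn went the other way in B cells, at 41.5 and 7.77 CPM.

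The genes of lowest ratio were ranked by the same rule. The interleukin-18 receptor chain Il18r1 fell from 140 to 42.8 CPM, a ratio of 0.306 (0.204 to 0.443), and was detected in 135 of 302 and 22 of 109 cells, although in CD4 cells alone its log2 ratio was 0.27 and changed sign with scaling (-0.01 to 1.16). The chromatin organiser Satb1 fell from 184 to 69.1 CPM (0.374, 0.273 to 0.503) and the lymphocyte egress receptor S1pr1 from 92.9 to 37.3 CPM (0.402, 0.258 to 0.601). In CD4 cells S1pr1 had 19 and 15 UMIs and a log2 ratio of 0.63 (-0.46 to 1.68) that stayed above 0 over 5 scalings. The sialic acid enzymes Cmah and St3gal6 had ratios of 0.319 and 0.334. The others were Gm15564, Gm15472, AI504432, Cbx7, Pitpnc1, Ide and Ppp1r9b, with ratios between 0.25 and 0.403. Of the 12 genes all but Gm15472 also had a lower CPM in B cells of the MYC library, among them Gm15564 at 201 and 26.7 CPM, S1pr1 at 56.5 and 15.1 and Satb1 at 47.8 and 22.2. The difference between the cell types was not tested.

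By list, with medians of log2 ratios on CPM plus 10 over genes with at least 20 UMIs, the naive list had a median of -0.51 beside -0.05 for all genes, and 0 of its 11 members with 50 UMIs were called higher and 4 lower (Tcf7, Satb1, S1pr1 and Actn1). The effector list, with 27 of 28 genes at that minimum, had a median of -0.12 that changed sign with scaling (-0.32 to 0.16), although 4 of 23 with 50 UMIs were called higher (Ccl5, Gzmb, Gzmk and Prf1) and 1 lower (Klrc1). In all T cells Gzmb went from 10 to 59 UMIs and from 8 of 302 to 27 of 109 cells, a log2 ratio of 4.21 (3.23 to 5.34). The activation and checkpoint list had a median of 0.61, with 3 of 8 members called higher (Pdcd1, Lag3 and Tnfrsf9) and 0 lower.

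Ccl5 and a few granule genes were higher in CD8 cells of the MYC library, while most of the effector list was not called. Ccl5 was present in 50 of 62 control cells (80.6%) and 30 of 33 MYC library cells (90.9%). A control CD8 cell held a median of 14 Ccl5 UMIs, with quartiles of 4.25 and 24 and a highest value of 138, against a median of 64, quartiles of 18 and 108 and a highest of 397 in the MYC library. Its CPM rose from 2030 to 11740, a log2 ratio of 2.53 (2.43 to 2.63), which ranged from 1.96 without cells holding 5 or more UMIs of the proliferation list to 2.85 without cells holding Ncr1 or Klrb1c UMIs. Ccl5 gave 1172 of 3042 effector-list UMIs in control CD8 cells and 2464 of 3401 in those of the MYC library, and without it the median cell held 27 and 29 UMIs of the list, or 36.5 and 50.5 per 10000 UMIs of the cell. Nkg7 was present in 55 of 62 and 32 of 33 cells and rose from 410 to 1315 CPM, a log2 ratio of 1.68 (1.42 to 1.94).

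The cytotoxic granule genes were carried by more of these cells. Gzmb, a protease that triggers apoptosis in target cells, was found in 2 of 62 control cells (3.23%) and 14 of 33 MYC library cells (42.4%), 39.2 points higher (20.5 to 57.8), and at 1000 UMIs per cell the expected shares were 0.439% and 15.7%. Its 2 and 41 UMIs, under the minimum of 50 for a call, give a ratio of 56.4 with a counting interval of 14.7 to 481. The granzyme Gzmk was found in 6 and 13 cells, 29.7 points higher (10.3 to 49.1), and the pore-forming perforin Prf1 in 15 and 16, 24.3 points higher (2.60 to 44.8). In neutrophil barcodes Gzmb was found in 0.0292% and 0 cells, Gzmk in 0.0437% and 0.0171% and Prf1 in 0.175% and 0.0341%. The effector genes did not move as one, since the memory marker Cd44 was found in 30 of 62 and 10 of 33 cells, the chemokine receptor Cxcr3 in 30 and 10, and the interleukin-2 and interleukin-15 receptor chain Il2rb in 52 and 26, none with a difference whose interval excluded 0. Over all T cells Cd44 and Cxcr3 were found in fewer MYC library cells, at -16.9 points (-27.5 to -5.53) and -13.3 points (-23.6 to -2.06). Il2rb differed by -4.60 points (-15.1 to 5.14). The effector list, of whose 28 genes 22 had at least 20 UMIs, had a median of 0.13 in CD8 cells (0.01 to 0.19 over 5 scalings, and -0.03 without cells over 20000 UMIs), beside -0.01 for all genes. Of its 16 genes with 50 UMIs 4 were called higher (Ccl5, Nkg7, Prf1 and the tissue residence receptor Cxcr6) and 1 lower (Zeb2). Counts of called genes in this class stand beside backgrounds of 5.46% called higher and 5.19% lower of 1832 genes.

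The promoters of the granule genes and of Havcr2 are shown as the windows of genes found in more CD8 cells of the MYC library, and Runx and T-box factors are known regulators of the cytotoxic program. They are the 250 bases before the RefSeq start on GRCm38.p6, read along the strand of the gene, with a Runx core and a T-box core in capitals on either strand. The Runx core searched was TGTGGT or its reverse complement. The T-box core searched was GTGTGA or its reverse complement. No 2 matches share a base.
Gzmb, chr14:56262335-56262584 (minus strand): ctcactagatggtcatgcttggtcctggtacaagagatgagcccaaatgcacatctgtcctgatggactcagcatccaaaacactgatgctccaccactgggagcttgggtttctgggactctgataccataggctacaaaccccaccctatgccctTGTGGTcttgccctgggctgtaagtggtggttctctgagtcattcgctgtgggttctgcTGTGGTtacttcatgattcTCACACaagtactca
Gzmk, chr13:113180966-113181215 (minus strand): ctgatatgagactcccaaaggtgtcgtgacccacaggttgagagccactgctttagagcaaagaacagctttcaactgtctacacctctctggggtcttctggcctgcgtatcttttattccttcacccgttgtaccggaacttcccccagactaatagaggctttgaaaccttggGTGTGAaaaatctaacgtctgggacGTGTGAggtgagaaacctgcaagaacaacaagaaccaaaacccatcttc
Prf1, chr10:61297586-61297835 (plus strand): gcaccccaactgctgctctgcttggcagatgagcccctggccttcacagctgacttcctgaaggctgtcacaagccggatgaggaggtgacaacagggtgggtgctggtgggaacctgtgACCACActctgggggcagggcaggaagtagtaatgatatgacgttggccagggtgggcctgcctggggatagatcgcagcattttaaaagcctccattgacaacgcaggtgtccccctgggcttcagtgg
Havcr2, chr11:46454681-46454930 (plus strand): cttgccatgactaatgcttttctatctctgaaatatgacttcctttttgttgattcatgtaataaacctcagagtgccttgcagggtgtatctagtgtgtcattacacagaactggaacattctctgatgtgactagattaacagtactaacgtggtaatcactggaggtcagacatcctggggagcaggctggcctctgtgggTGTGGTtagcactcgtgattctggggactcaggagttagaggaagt
The Runx core had 2 matches before Gzmb, 1 before Prf1, 1 before Havcr2 and 0 before Gzmk. The T-box core had 1 match before Gzmb, 2 before Gzmk and 0 before Prf1 and Havcr2. In the windows of Pdcd1 and Tnfrsf9, whose sequences are not shown, neither core had a match, and in that of Nkg7 each had 1. For Tnfrsf9 only the first of 2 listed windows was read. Of 32851 promoter windows of that length, 14.0% held the Runx core and 12.3% the T-box core. A match describes letters and is not evidence of binding.

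Several genes of chronic activation and inhibition were detected in a larger share of CD8 cells of the MYC library. Tox, a factor linked to exhaustion, was found in 19 of 62 and 21 of 33 cells (30.6% and 63.6%), 33.0 points higher (10.4 to 52.4), and rose from 46.8 to 348 CPM, a log2 ratio of 2.90 (2.24 to 3.59). The inhibitory receptor gene Pdcd1, which encodes PD-1, was found in 4 and 12 cells (6.45% and 36.4%), 29.9 points higher (11.5 to 49.0), with 4 and 25 UMIs, too few for a call. Lag3, an inhibitory receptor for class II molecules, was found in 3 and 12 cells, Havcr2, which encodes TIM-3, in 1 and 9, and Tnfrsf9, which encodes 4-1BB, in 5 and 11. Their differences were 31.5 points (13.4 to 50.4), 25.7 (10.0 to 44.0) and 25.3 (7.06 to 44.5). These receptors were rare in neutrophil barcodes, with Pdcd1 in 0 and 0.137% and Havcr2 in 0.16% and 0.307%. In B cells, Pdcd1 was found in 0.451% and 3.51%, 3.06 points higher in the MYC library (1.52 to 5.13), and Havcr2 in 0.376% and 4.75%, 4.38 points higher (2.59 to 6.68). The list median in CD8 cells, over the 6 of 12 genes with at least 20 UMIs in both libraries together, was 2.08. It stayed between 1.86 and 2.22 over 5 scalings. Pdcd1 reached that minimum only through the MYC library, where it was high, and genes that enter this way raise the median. The median is therefore a description and not separate support for the gene values above. Of the 3 members with at least 50 UMIs, Tox was called higher and none lower. The other members with that many, the early activation receptor Cd69 (23 and 8 cells) and the receptor Cd160 (25 and 9 cells), had log2 ratios of -0.05 (-1.08 to 0.90) and -0.30 (-1.32 to 0.62). Without the cells holding 5 or more proliferation UMIs, which left 43 and 20 CD8 cells, the list median was 0.29 and the log2 ratio of Tox was 2.49 (1.58 to 3.45).

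Several transcripts of naive and circulating cells were lower in MYC library CD8 cells. Tcf7, the factor of naive, memory and stem-like T cells, was found in 58 of 62 control cells (93.5%) and 8 of 33 MYC library cells (24.2%), 69.3 points fewer (-69.3, -83.3 to -49.1). The shares expected at 1000 UMIs per cell were 32.5% and 6.68%, and its level fell from 384 to 110 CPM, a log2 ratio of -1.81 (-2.50 to -1.19). S1pr1 was found in 41 and 5 cells, a difference of -51.0 points (-66.3 to -29.7), and fell from 152 to 33.4 CPM. Satb1 fell from 251 to 47.6 CPM, a log2 ratio of -2.40 (-3.49 to -1.48), and the interleukin-7 receptor Il7r by 1.20 on that scale. Lef1 was found in 35 and 9 cells, -29.2 points (-48.0 to -6.66). The naive list had a median of -1.01 (-1.19 to -0.96 over 5 scalings), with 5 of 9 members called lower and 0 higher. Of the 4 genes used to read naive content, Igfbp4 had 21 UMIs in 6 control cells and none in the MYC library, while Dapl1 had 10 UMIs in 6 control cells and 33 in 2 MYC library cells, so that few cells set both. In CD4 cells the naive list had a median of -0.24, which lay between -0.51 and 0 over 5 scalings and was 0.42 without cells holding 5 or more proliferation UMIs and 0.02 without cells over 20000 UMIs. It had 1 of 4 members called higher, the quiescence factor Klf2 (9 and 8 cells, log2 ratio 1.60), and 1 lower, the transcription factor Foxp1 (-1.07). Some of these genes were lower outside T cells too. In barcodes of the NK gate Tcf7 was found in 28 of 40 and 2 of 13, -54.6 points (-73.6 to -20.3). In B cells S1pr1 was found in 34.6% and 13.6%, -20.9 points (-24.9 to -16.7), and the differences were -13.0 points for Ccr7 (-16.2 to -9.53) and -9.92 for Lef1 (-11.8 to -7.86).

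**Figure D3:**
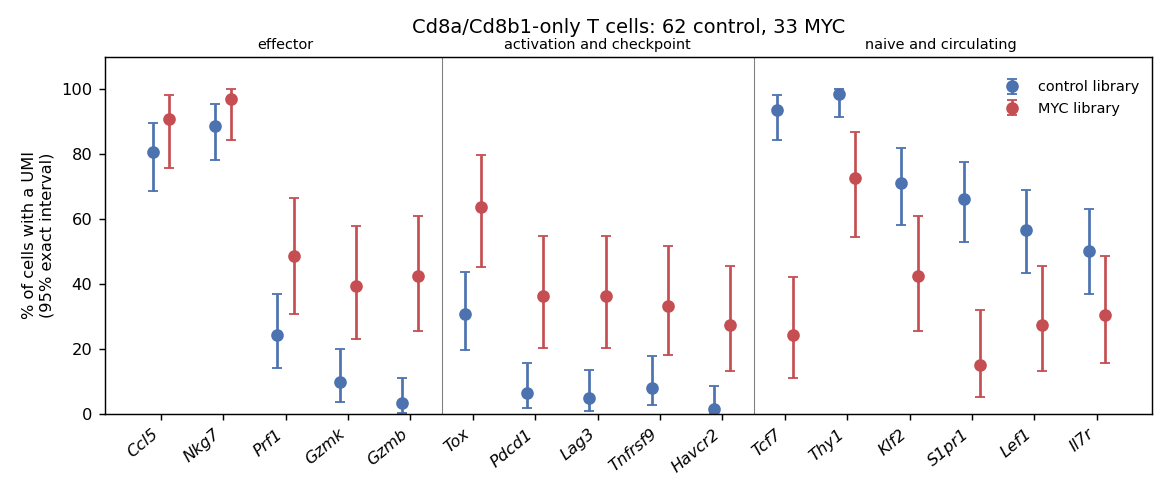
Share of CD8 cells (vertical axis, %) with at least 1 UMI of each gene (horizontal axis), in 62 control and 33 MYC library cells. Points are shares and bars exact 95% intervals. Among the genes plotted, the MYC library is higher for the granule and checkpoint genes, such as Gzmb at 42.4% against 3.23%. It is lower for Tcf7 at 24.2% against 93.5%. Cd69 and Cd160, also of the activation and checkpoint list, are not plotted and were found in a smaller share of MYC library cells. Thy1, plotted in the group of Tcf7, was lower over all T cells too, at -14.8 points (-25.6 to -4.31), and its fall is not read as naive content.

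Tcf7 and the granule genes combined differently in the 2 libraries. In the control library 41 of 62 CD8 cells (66.1%) had Tcf7 and none of Gzmb, Gzmk and Prf1, 17 had both and 2 (3.23%) had a granule gene without Tcf7. In the MYC library 5 of 33 (15.2%) had Tcf7 alone, 3 had both and 19 (57.6%) had a granule gene without Tcf7. The median CD8 cell held 7777.5 UMIs in the control library and 5640 in the MYC library.

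CD8 cells with at least 3 of the 12 activation and checkpoint genes, a count chosen after the values were seen, were 12 of 62 in the control library (19.4%) and 16 of 33 in the MYC library (48.5%), 29.1 points higher (7.75 to 49.2). Its interval reached 0 after thinning to 1000 UMIs (13.3, -14.0 to 40.5) and without cells holding 5 or more proliferation UMIs (23.7, -1.66 to 49.5). The 16 MYC library cells included 3 with Tcf7, 13 with a granule gene, 13 with the receptor constant gene Trbc1 and 5 with the variable gene Trbv19, and their median Ccl5 count was 90.5 UMIs. Of the 12 control cells 10 had Tcf7 and 5 a granule gene, and their median Ccl5 count was 12. Trbv19 was seen in 5 of 33 MYC library CD8 cells, all of them in that group of 16, and in none of the 62 in the control library. Any gene of the beta variable family was seen in 11 of those 33 and 7 of those 62 cells. Trbv19 was also seen in 4 control cells with neither coreceptor, and in 2 CD4 cells and 2 cells with neither in the MYC library.

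CD4 cells went the other way for Tox. It was found in 46 of 68 control CD4 cells (67.6%) and 8 of 26 in the MYC library (30.8%), a difference of -36.9 points (-56.6 to -12.5), and fell from 223 to 110 CPM, a log2 ratio of -1.02 (-1.71 to -0.37). The costimulatory receptor Icos fell from 171 to 57.1 CPM (-1.58, -2.55 to -0.72). Pdcd1 was found in 34 and 9 cells and its log2 ratio changed sign with scaling (-0.51 to 0.57). CD4 cells with at least 3 of the 12 genes were 38 of 68 (55.9%) and 8 of 26 (30.8%), a difference of -25.1 points (-45.5 to -0.624). Its interval held 0 after thinning to 1000 UMIs (-7.69, -36.0 to 53.0) and with a gate of 3 CD3 UMIs (-21.2, -43.9 to 5.08). It also did with under 5% mitochondrial UMIs (-23.2, -47.9 to 6.76), with a minimum of 500 UMIs (-24.3, -44.7 to 0.129) and without members carrying RNA of another lineage (-22.1, -43.4 to 3.16). The median depth of these cells was 5479.5 UMIs in the control library and 15832.5 in the MYC library. Cells with neither coreceptor had 43 of 171 (25.1%) and 10 of 50, and all T cells together 93 of 302 (30.8%) and 34 of 109 (31.2%), a difference of 0.398 points (-9.77 to 11.3).

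**Figure D4:**
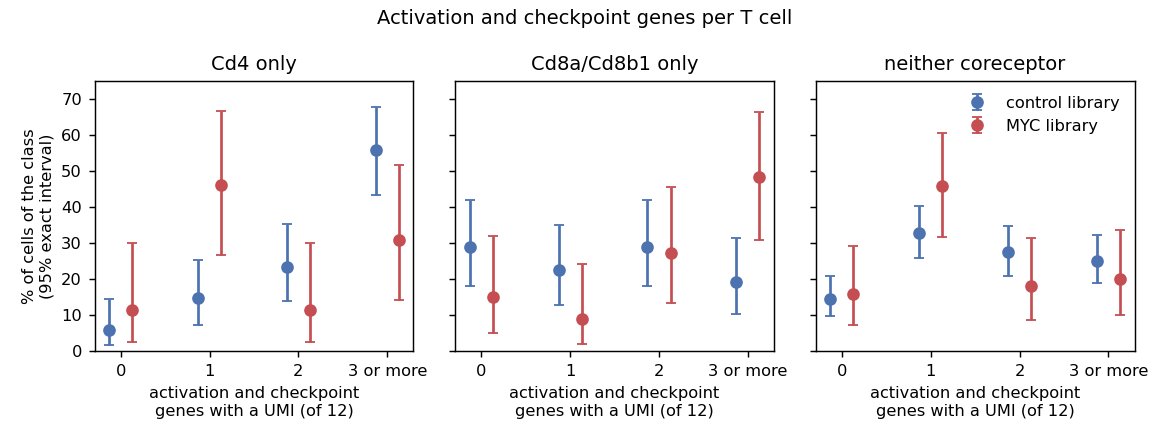
Share of cells (vertical axis, %) by how many of the 12 activation and checkpoint genes had a UMI (horizontal axis), for CD4 cells, CD8 cells and cells with neither coreceptor. Points are shares and bars exact 95% intervals. Cells with 3 or more are 55.9% of CD4 cells in the control library and 30.8% in the MYC library, and 19.4% and 48.5% of CD8 cells.

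Transcripts shared by regulatory and activated CD4 cells were lower in the MYC library. Ikzf2, which encodes Helios, fell from 855 to 330 CPM (log2 ratio -1.37, -1.75 to -1.01), Maf, a factor of helper and regulatory cells, from 722 to 237 CPM (-1.61, -2.05 to -1.19) and the folate receptor gene Izumo1r from 265 to 70.3 CPM (-1.92, -2.77 to -1.16). Foxp3 was found in 14 of 68 (20.6%) and 2 of 26 (7.69%) CD4 cells, -12.9 points (-26.3 to 6.66), an interval that holds 0. The regulatory list had a median of -1.16 in CD4 cells (-1.48 to -0.85), with 2 of 4 members called lower and 0 higher. Of all 1749 genes with 50 UMIs in CD4 cells 12% were called higher and 8.69% lower. The receptor and signalling genes Cd5, Cd6, Cd27 and Fyn were called lower too, at log2 ratios of -1.54, -1.43, -1.26 and -1.15. Ccl5 was at 378 and 1011 CPM in CD4 cells, but 2 cells of each library held 97 of its 168 control and 202 of its 230 MYC library UMIs, and the median cell held 0 in both. Its log2 ratio was 1.42 (1.13 to 1.72), 1.04 without the richest cell of each library and -0.38 (-1.06 to 0.27) without the 2 richest. It was 2.09 without cells over 20000 UMIs and 3.56 without cells holding 5 or more proliferation UMIs. Over all T cells Foxp3 was found in 26 of 302 (8.61%) and 5 of 109 (4.59%).

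Ribosomal protein transcripts rose in CD4 cells, and growth transcripts rose in a few of them. The list of genes known to be induced by MYC, mainly nucleolar and ribosome assembly factors, had a median of 1.02 in CD4 cells (0.76 to 1.25 over 5 scalings) beside -0.07 for all genes, with 8 of 18 members called higher and none lower. Among them were nucleophosmin Npm1 (522 to 1319 CPM, log2 ratio 1.34), the snoRNP protein Nhp2 (2.23), lactate dehydrogenase Ldha (1.64) and the chaperonin Hspd1 (1.45). Ribosomal protein genes had a median of 1.25, with 58 of 81 called higher and 1 lower. The rise was not particular to CD4 cells. In cells with neither coreceptor these genes had a median of 0.71, with 19 of 85 called higher and 0 lower, beside 4.56% of all genes called higher in that class. The proliferation list had a median of 0.62 in CD4 cells with 5 of 12 called higher, including Stmn1 (191 to 598 CPM) and Pclaf (110 to 347 CPM). Few cells carried much of this signal: the 10 richest of 26 MYC library CD4 cells held 96.5% of the proliferation UMIs and the 10 richest of 68 control cells 85.8%. Without cells holding 5 or more proliferation UMIs, which left 52 and 19 CD4 cells, the MYC-induced list had a median of 0.32 with 0 of 9 called, and ribosomal protein genes kept a median of 1.22 with 56 of 79 called higher. Without cells over 20000 UMIs the MYC-induced list had 0 of 11 called, the proliferation list a median of -0.17 and Pclaf a log2 ratio of -0.20.

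In CD8 cells the same lists gave other values, and the order of the classes depended on the cells kept. The MYC-induced list had a median of -0.08 in CD8 cells that changed sign with scaling (-0.20 to 0.25), with 0 of 20 members called higher and 1 lower, Nolc1, which had 16 of its 47 control UMIs in 1 cell. Without cells holding 5 or more proliferation UMIs its median was 0.39 in CD8 cells (1 of 7 called higher) beside the 0.32 of CD4 cells, and without cells over 20000 UMIs it was 0.46 and 0.62. Ribosomal protein genes had a median of 0.34 in CD8 cells, with 1 of 82 called higher and 0 lower. The proliferation list had a median of 0.23 and 0 of 7 called, and a median of 1.22 with 3 of 4 called higher without cells over 20000 UMIs, 1 of which, a control cell, held 69363. Mki67 was found in 25 of 62 and 15 of 33 CD8 cells, 34 of 68 and 14 of 26 CD4 cells, and 55.0% and 50.2% of neutrophil barcodes. Dividing cells were not separated from the neutrophil barcodes, so how much of this is background was not tested. A share of cells with its UMIs is not read as expression here.

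**Figure D5:**
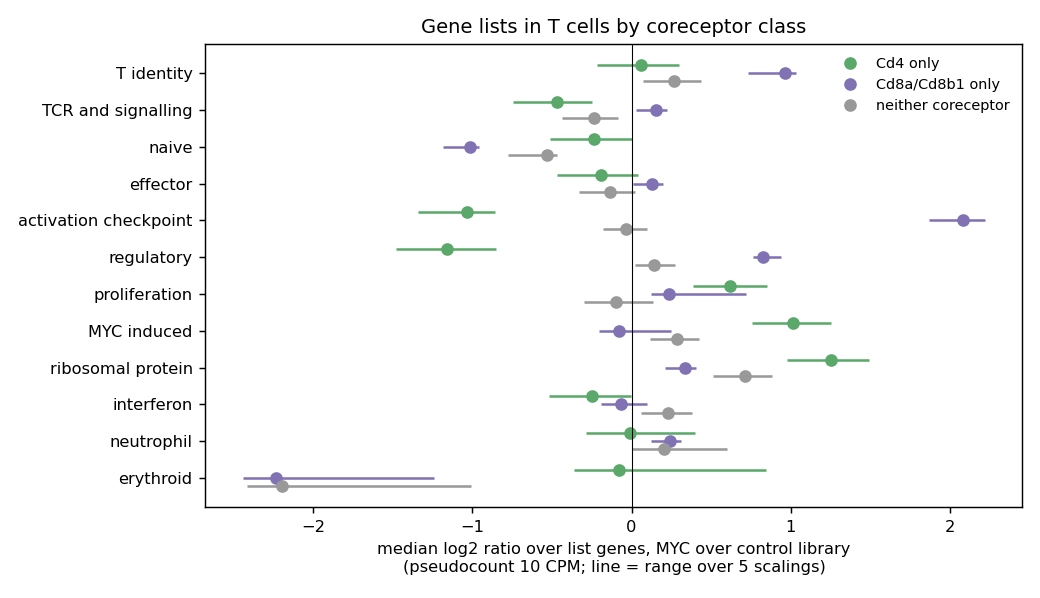
Median log2 ratio, MYC over control library, over the genes of each list (rows), for CD4 cells, CD8 cells and cells with neither coreceptor, on CPM plus a pseudocount of 10. Points use UMI totals and lines give the range over 5 scalings. The activation and checkpoint list lies at 2.08 in CD8 cells and at -1.03 in CD4 cells, and the MYC-induced list at 1.02 in CD4 cells and -0.08 in CD8 cells. The activation and checkpoint medians rest on 6 of 12 genes in CD8 and in CD4 cells. In CD8 cells Pdcd1 reached the minimum of 20 UMIs only through the MYC library, which favours a higher median there.

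The gamma-delta gene Trdc and NK receptor genes were found mostly in cells with neither coreceptor. The delta constant gene Trdc was found in 33 of 171 control cells (19.3%) and 8 of 50 MYC library cells (16.0%), and NK receptor genes Ncr1 or Klrb1c in 77 (45.0%) and 23 (46.0%), against 24.2% and 18.2% of CD8 cells and 2.94% and 3.85% of CD4 cells. Over all T cells 94 of 302 and 30 of 109 held Ncr1 or Klrb1c UMIs, and 94 and 29 of these also held an alpha or beta receptor constant UMI. Most barcodes of the NK gate held a receptor constant UMI as well, so these genes do not separate such members from NK cells. NK cells with CD3 RNA were not separated from the cells with neither coreceptor, and the values below may include them. In the cells with neither coreceptor Ccl5 rose from 1818 to 4757 CPM, a log2 ratio of 1.39 (1.29 to 1.49). Gzmb was found in 5 (2.92%) and 12 (24.0%) cells, 21.1 points higher (9.51 to 35.4), and Tcf7 in 71.9% and 42.0%, -29.9 points (-45.2 to -13.4). S1pr1 fell from 84.0 to 17.5 CPM. The class had 4.56% of 3621 genes called higher and 6.13% lower.

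RNA of other lineages moved with these comparisons, and its part in them was not tested. S100a9 rose from 1623 to 3483 CPM in CD8 cells while staying under the gate, and all 5 erythroid genes with at least 50 UMIs were lower in MYC library CD8 cells (list median -2.23), where 1 control cell held 886 of the 1149 Hbb-bs UMIs. Tyrobp, an adaptor of myeloid and NK cells, was found in more cells of the MYC library, 36.4% and 52.3% of T cells, 15.9 points higher (4.54 to 27.0). The difference was 32.4 points in CD4 cells (9.39 to 54.0), 23.9 in CD8 cells (1.54 to 44.5) and 39.0 in B cells (34.1 to 43.6), although its log2 ratio in CD4 cells was -0.25 (-0.94 to 0.41). The monocyte and macrophage list had a median of 1.14 in cells with neither coreceptor, with 2 of 3 members called higher (Ms4a6c and F13a1) and a summed level of 135 and 346 CPM. B-lineage RNA was lower in CD4 cells of the MYC library, where Ighm and Igkc, the members of that list with 50 UMIs, were both called lower (log2 ratios -1.22 and -1.34), and 26 of 302 and 1 of 109 members held a Cd79a or Cd79b UMI. Ms4a1, a defining B cell gene, had 0 UMIs in CD4 cells of both libraries. Complement C1q genes were found in 5 of 302 and 11 of 109 T cells, 8.44 points higher (3.04 to 15.8), and in 2.96% and 14.1% of neutrophil barcodes. The basophil genes Mcpt8 and Prss34 came mostly from 1 CD4 cell of the control library (326 of 346 and 277 of 295 UMIs) and 1 cell of the MYC library without a coreceptor (387 of 395 and 534 of 544). By a fixed limit on UMIs of other lineages 24 control and 6 MYC library members carried such RNA (7.95% and 5.50%), and without them the CD8 difference in cells with 3 checkpoint genes was 29.6 points. Of 4 thymocyte genes, Rag1, Rag2 and Ptcra had no UMI in any member, which allows up to 0.993% and 2.75% of cells with a UMI of each. The fourth, Dntt, had 16 UMIs in 4 of 302 control cells, 9 of them in 1 cell, and 0 in the MYC library.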

How the data were processed

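Per the submitters' processing notes, reads were processed with Cell Ranger 6.0 and Seurat on GRCm38/mm10, and per the file headers the count matrices came from Cell Ranger 6.0.0. The deposited values were UMI counts per gene and barcode over 32286 features, 17073 control and 14496 MYC library barcodes. The sequence behind the MYC feature is not given in the sources used here. No depth beyond UMIs is known.

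Counts were summed over T cells per library and class and divided by their UMI total (CPM). With 1 library per genotype no test was made. Shares carry Clopper-Pearson intervals, their differences Newcombe intervals built from these, levels exact Poisson intervals and ratios conditional binomial intervals, at 95%. Those of shares, their differences and ratios were checked on simulated counts drawn independently. That check does not cover genes whose UMIs lie mostly in a few cells. Zero limits are 3 counts of the cells measured. Shares expected at 1000 UMIs were computed from each cell's counts. Scrublet, run per library in scanpy 1.11.5, found no calls at its own threshold in the MYC library, so the control's threshold was used for both (558 and 356 calls), and calls were kept except in an alternative. Genes were named from the lists, and as the 12 highest and 12 lowest ratios of T-enriched genes and the 15 most particular to T cells. Neutrophil barcodes, chosen by granulocyte genes, gave the background. Promoters came from a RefSeq table of GRCm38.p6. A gene of the naive list is not reported here by name. Members and lists were chosen with earlier results of these data known. Python 3.11.15, numpy 2.4.6, scipy 1.17.1 and pandas 2.3.3 were used.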

Additional observations from a re-analysis of the deposited data

Results flagged for a closer look

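CD4 and CD8 cells differed in opposite directions between the libraries for 5 of 85 list genes with at least 50 UMIs in both classes, counted as intervals on opposite sides of equality. Among all genes with that many UMIs it was 35 of 1491 (2.35%). None of these differences between the classes was tested. The T cell receptor constant gene Trbc1 had log2 ratios, MYC over control, of -0.95 in CD4 cells and 1.69 in CD8 cells. Tox had -1.02 and 2.90. The integrin chain Itgb2 had -0.67 and 0.72. The nucleolar genes Npm1 and Ncl went the other way, with 1.34 and -0.51 for Npm1 and 0.89 and -0.29 for Ncl, which was 0.07 in CD8 cells by a mean over cells. Npm1 in CD8 cells was -0.08 without its richest cell in each library. The share of cells with at least 3 of the 12 activation and checkpoint genes differed by -25.1 points in CD4 cells and 29.1 points in CD8 cells.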

How the results depend on the processing

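No paired analysis was possible because each genotype has 1 library and the labels give no replicate numbers, and for the same reason no replicate could be left out. The effector share changed sign, from 3.53 points with an interval holding 0. The naive share, whose interval also held 0, changed sign too and ranged from -1.30 to 3.12 points over the alternatives. The T cell share differed by -0.820 points without cells holding Ncr1 or Klrb1c UMIs (1.57% and 0.749%) and by -0.443 points after thinning to 1000 UMIs (0.936% and 0.493%), against -1.25 (2.28% and 1.03%). Thinning also gave -28.9 points for the CD4 share of single-coreceptor cells and 13.7 points for the effector share, which was -12.9 points with no S100a8 and S100a9 limit. Genes called higher and lower, 235 and 300, were 149 and 538 with no S100a8 and S100a9 limit, 403 and 194 with ribosomal protein genes out of the total, 106 and 581 without the 20 most abundant genes, 76 and 33 at a higher UMI minimum, 708 and 676 at 1.5-fold, and 147 and 195 without cells rich in proliferation transcripts, an alternative added after seeing the data. Leaving out cells over 20000 UMIs, those of another lineage or the richest cell of a gene was also added after seeing the data. The naive list median was -0.36 with a pseudocount of 50 CPM. Over the alternatives on members, the log2 ratio in CD8 cells ranged from -2.06 to -1.62 for Tcf7 (-2.34 without its richest cell in each library), from 2.49 to 3.35 for Tox, from 3.86 to 4.27 for Pdcd1 and from 4.81 to 5.87 for Gzmb, and the share with 3 checkpoint genes differed by 13.3 to 36.5 points. Depth limits low genes most: most single receptors rest on under 50 UMIs per class.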

Other observations

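Genes of the interferon response had a median log2 ratio of 0.02 over all T cells that changed sign with scaling (-0.18 to 0.16), with 0 of 25 called higher and 3 lower, beside 3.84% higher and 4.91% lower of all 6116 genes. These were the interferon factor Irf7, at -1.03, the ubiquitin-like protease Usp18, with 47 and 6 UMIs, and the antiviral gene Rsad2, at -1.57. The homing receptor Ccr9, which plasmacytoid dendritic cells also express, had 60 UMIs in 13 control T cells, with 27 in the richest, and 0 in the MYC library. The X-inactivation RNA Xist was found in 290 of 302 and 95 of 109 members and Ddx3y in none of either library.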
